A study of Homo sapiens with 6 samples.

Results

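The genes described here are 9 members of the MHC class I antigen presentation pathway: HLA-B, HLA-C, HLA-E, HLA-F, B2M, TAP1, TAP2, TAPBP and PSMB9. They were chosen by name, with earlier results of these data known, and were all found among the 14711 genes that the count tables of both cell lines share. Unique molecular identifiers (UMIs, 1 per captured mRNA molecule) were counted per gene and cell in A375, a human melanoma line labelled BRAF-V600E, and in PC9, a human lung adenocarcinoma line labelled EGFR-del. A375 cells had been adapted stepwise to dabrafenib, an inhibitor of the BRAF kinase, at doses in nM of 30, 60, 125, 250, 500 and in µM of 1, 2, 4, and were set against an untreated culture. PC9 cells had been adapted stepwise to osimertinib, an inhibitor of the EGFR kinase, at doses in nM of 8, 16, 32, 75, 150, 300, 600 and at 1.2 µM, beside persisters kept for 9 days in an acute 1.2 µM dose and an untreated culture. All 9 A375 populations carry the same BRAF genotype, and all 10 PC9 populations the same EGFR genotype. Each population is 1 culture of 1 line, so no spread between cultures is known, no test between conditions is possible, and the 95% intervals given after ratios reflect counting error alone. The time that the adapted cells spent in drug is not given in the sources used here.

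MHC class I molecules show peptides from inside the cell to CD8 T cells. A polymorphic heavy chain, encoded by genes such as HLA-B and HLA-C, is folded with the invariant light chain B2M (beta-2-microglobulin). Peptides are cut by the proteasome, in which the interferon-inducible subunit PSMB9 can take the place of PSMB6, are carried into the endoplasmic reticulum by the TAP1 and TAP2 transporter, and are loaded onto the heavy chain with the help of tapasin, encoded by TAPBP. HLA-E and HLA-F are nonclassical heavy chains, and HLA-E is read mainly by receptors of natural killer cells. In most tissues the pathway is transcribed through interferon response elements, a κB site and an SXY module bound by RFX factors and the coactivator NLRC5. Melanoma and lung adenocarcinoma cells are known to vary widely in this expression.

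The 250 bases before the transcription start of 6 members are shown because these control elements sit there. RefSeq windows on GRCh38.p14 were available for 8 of the 9 members, HLA-E being the member named only. Capitals mark matches, on either strand, to the interferon response element in a class I form (AANTGAAAC) or as a tandem core (GAAANNGAA), and to κB sites in a class I form (GGGATTCCC) or another form (GGGNNTTTC).
HLA-B promoter (chr6:31357180-31357429, minus strand): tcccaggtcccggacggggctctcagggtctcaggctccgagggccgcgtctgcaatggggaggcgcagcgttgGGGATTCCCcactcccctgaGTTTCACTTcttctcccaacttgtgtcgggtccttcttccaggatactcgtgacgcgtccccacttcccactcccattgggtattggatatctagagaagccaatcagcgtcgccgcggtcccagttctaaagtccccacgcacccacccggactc
HLA-C promoter (chr6:31272093-31272342, minus strand): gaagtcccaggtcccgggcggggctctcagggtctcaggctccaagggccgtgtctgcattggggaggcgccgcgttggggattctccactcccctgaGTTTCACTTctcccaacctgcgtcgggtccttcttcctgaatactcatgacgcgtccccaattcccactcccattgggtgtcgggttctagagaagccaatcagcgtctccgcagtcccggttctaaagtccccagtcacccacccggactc
B2M promoter (chr15:44711267-44711516, plus strand): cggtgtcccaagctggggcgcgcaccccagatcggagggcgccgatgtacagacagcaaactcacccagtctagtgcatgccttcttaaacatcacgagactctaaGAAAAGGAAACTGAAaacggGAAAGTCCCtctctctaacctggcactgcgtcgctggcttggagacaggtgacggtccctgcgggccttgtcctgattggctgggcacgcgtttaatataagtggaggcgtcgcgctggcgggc
TAP1 promoter (chr6:32853705-32853954, minus strand): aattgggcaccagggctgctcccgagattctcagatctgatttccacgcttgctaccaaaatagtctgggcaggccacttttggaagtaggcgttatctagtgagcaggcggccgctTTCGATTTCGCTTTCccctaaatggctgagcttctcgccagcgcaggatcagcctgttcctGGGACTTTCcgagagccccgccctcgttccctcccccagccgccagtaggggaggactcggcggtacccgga
TAPBP promoter (chr6:33314079-33314328, minus strand): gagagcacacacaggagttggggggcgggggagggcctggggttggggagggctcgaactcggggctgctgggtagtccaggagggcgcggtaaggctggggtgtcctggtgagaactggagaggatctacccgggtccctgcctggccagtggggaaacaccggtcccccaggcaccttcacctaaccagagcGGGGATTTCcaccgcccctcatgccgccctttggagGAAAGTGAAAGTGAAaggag
PSMB9 promoter (chr6:32853942-32854191, plus strand): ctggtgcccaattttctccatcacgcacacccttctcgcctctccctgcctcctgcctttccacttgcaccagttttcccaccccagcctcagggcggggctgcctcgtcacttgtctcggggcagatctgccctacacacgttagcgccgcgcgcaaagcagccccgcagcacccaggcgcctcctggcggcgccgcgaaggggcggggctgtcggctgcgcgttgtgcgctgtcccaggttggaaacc

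The HLA-B window held the class I interferon form 148 to 156 bases before the start and the class I κB form 168 to 176 bases before it. Among 35116 promoter windows of the same length, 1.09% held the interferon letters and 0.362% the κB letters. HLA-C had the same interferon letters 144 to 152 bases before its start, while its stretch at the place of the κB form read GGGATTCTC and differed from that of HLA-B by C8T, counted from the 5′ end of the HLA-B stretch. The B2M window and the TAP1 window shown each held 2 overlapping tandem cores (found in 6.88% of all windows) and 1 other κB form (4.16%). TAP1 had a second window (chr6:32852762-32853011, minus strand), not shown, which held none of the 4 forms. TAPBP likewise had 2 overlapping tandem cores, within 20 bases of its start, and a κB form 48 to 56 bases before it. TAP2 held 1 tandem core 50 to 58 bases before its start, HLA-F held 1 at 147 to 155 bases, and the PSMB9 window held none of the 4 forms. The PSMB9 window and the TAP1 window shown lie head to head and share the bases from 32853942 to 32853954. These matches describe letters and not binding, which was not measured. The letters are those of the reference genome, and those of A375 and PC9 were not read. Whether they bear on the levels was not tested.

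The A375 table held 8505 cells and 87053189 UMIs, with 2938641 UMIs in the shallowest population (125 nM) and 21976644 in the deepest (untreated). The PC9 table held 11258 cells and 77210300 UMIs, with 4908228 UMIs in the persisters and up to 10552237 in untreated cells. Levels are counts per 1000000 UMIs of a population (CPM), which are relative to everything else counted. Of 9 melanocyte lineage markers 5 reached 10 CPM in an A375 population, SOX10 and MITF among them, while the pigment genes PMEL, MLANA, TYR and TYRP1 stayed at or below 4.42 CPM. Of 10 lung and epithelial markers 8 were in the PC9 table and all of these reached 10 CPM, but NKX2-1 and SFTPB were not among its genes. Of 10 immune cell markers only CD68 reached 10 CPM in either line, and PTPRC, the pan-leukocyte marker, was at or below 0.882 CPM in every population. Between populations of a line 0 cell barcodes were shared, and 27 occurred in both tables.

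Reads of HLA genes are assigned to reference symbols although the alleles of A375 and PC9 differ from the reference and the genes resemble each other, so the split between HLA-B, HLA-C and the nonclassical genes is partly uncertain. The annotated HLA-B gene (chr6:31269491-31357188, minus strand) also overlaps HLA-C (chr6:31268749-31272130, minus strand). TAP1 (chr6:32845209-32853978) and PSMB9 (chr6:32844136-32859585) overlap on opposite strands, and whether counting used strand is not given in the sources used here. B2M (chr15:44711487-44718877, plus strand) has no such neighbour among the members.

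In A375 the class I genes were higher in every adapted population than in untreated cells for B2M, TAPBP, TAP1, HLA-E, HLA-F, HLA-C and HLA-B, with some differences inside counting error and with unlike dose courses. The heavy chains HLA-B and HLA-C were highest at the middle doses and stood close to untreated cells at 1 µM. B2M, the light chain, was higher already at 30 nM and highest at 4 µM. TAP2 stayed between 0.769-fold (0.594 to 0.990) its untreated level at 60 nM and 1.22-fold (0.942 to 1.57) at 1 µM.

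HLA-B was counted at 140.5 CPM in untreated A375 cells and, from the lowest to the highest dose, at 215, 302, 372, 368, 169.9, 144, 167 and 206 CPM. The levels at 125 and 250 nM did not differ beyond counting error, nor did those at 30 nM and 4 µM, at 500 nM and 2 µM, or at 1 µM and without drug. HLA-C followed a like course, with 228 CPM in untreated cells and 287, 411, 434, 481, 267, 236, 279 and 319.9 CPM along the doses. For both heavy chains the level at 500 nM was well below that at 250 nM. HLA-E had 50.4 CPM in untreated cells and 82.7, 67.6, 82.7, 91.6, 62.3, 51.4, 52.8 and 53.9 CPM along the doses, so its levels at 1, 2 and 4 µM did not differ from the untreated level beyond counting error.

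B2M was counted at 906 CPM in untreated A375 cells and at 1589.7, 1340.0, 1174, 1440.3, 1542, 1401, 1527 and 1694 CPM along the doses. It thus had a dip at 125 nM, the dose at which HLA-B was highest. PSMB9, the immunoproteasome subunit, had 47.7 CPM in untreated cells and 76.1, 60.7, 45.9, 58.6, 80.5, 87.3, 89.8 and 86.7 CPM along the doses. Its level at 125 nM did not differ from the untreated one beyond counting error, and the 4 doses from 500 nM upward did not differ from their neighbours in order. TAPBP, which encodes tapasin, had 24.9 CPM in untreated cells and 37.9, 33.6, 37.4, 37.9, 42.7, 43.2, 44.3 and 44.9 CPM along the doses.

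The transporter subunits differed in level pattern. TAP1 had between 12.9 CPM at 60 nM and 20.4 CPM at 4 µM in adapted A375 cells, against 11.7 CPM in untreated cells. TAP2 had between 6.44 CPM at 60 nM and 10.2 CPM at 1 µM, against 8.37 CPM in untreated cells, and none of the neighbours in its order differed beyond counting error. HLA-F, the least counted heavy chain, had between 7.32 CPM at 60 nM and 13.6 CPM at 4 µM in adapted cells, against 4.64 CPM in untreated cells, from 28 to 108 UMIs per population.

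**Figure D1:**
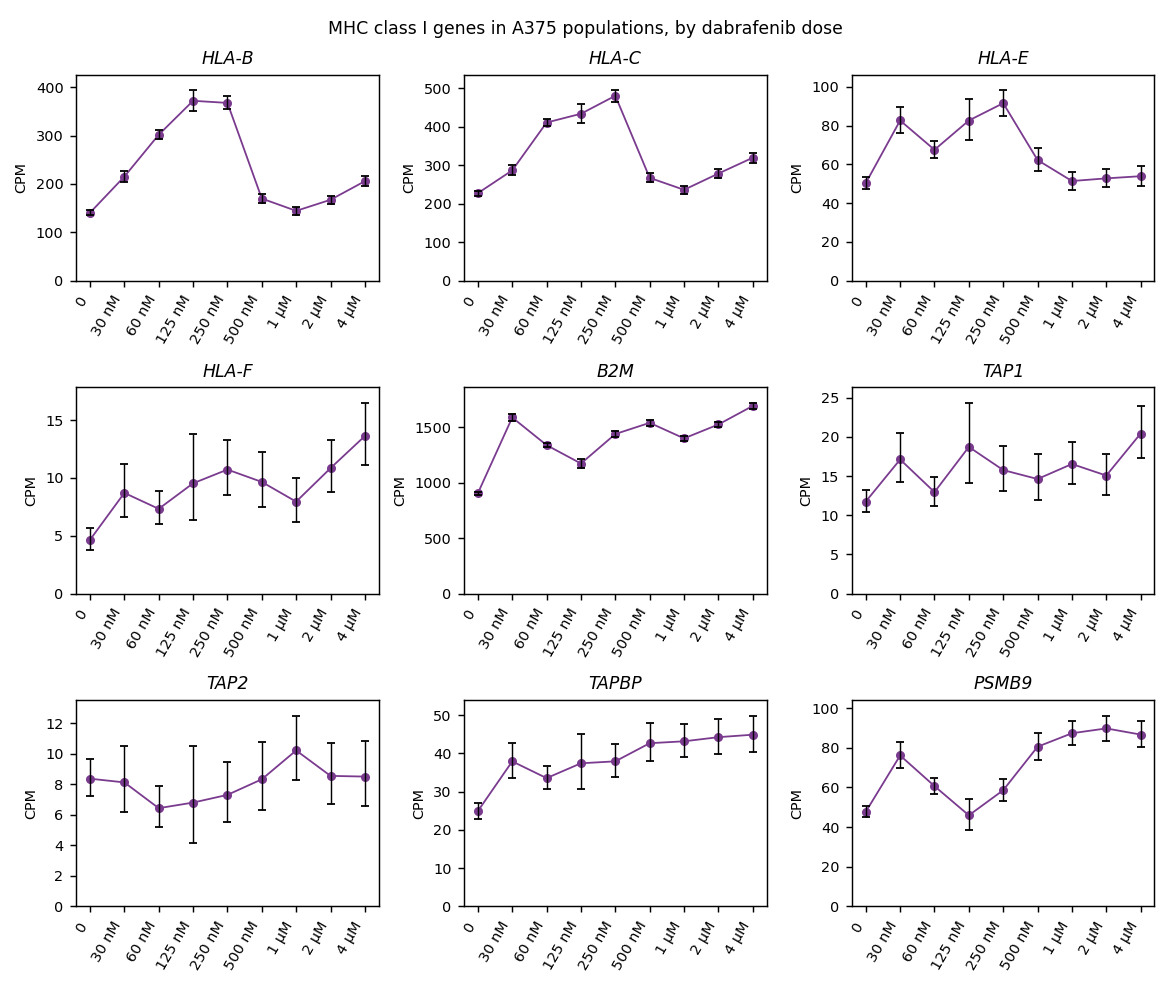
Level of each of the 9 class I genes in CPM (vertical axis, each panel with its own scale from 0) in A375 populations by dabrafenib dose (horizontal axis, 0 is untreated). Points are 1 culture each and bars are 95% Poisson intervals for counting error; HLA-B and HLA-C peak at 125 to 250 nM (372 and 481 CPM), whereas B2M peaks at 4 µM (1694 CPM).

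Cells adapted to the top dose of 4 µM were set against untreated A375 cells. Genes were measured if the population with more of them gave 20 UMIs and 10 CPM or more, and were counted as different from 2-fold upward. Of 9946 measured genes 15.4% met this in either direction, 5.97% higher and 9.45% lower. Of the 8 members measured 1 was at least 2-fold higher and 0 were lower. That member was HLA-F at 2.93-fold (2.21 to 3.89), with 104 UMIs at 4 µM and 102 in the larger untreated library. HLA-F passed the minimum only through the 4 µM cells, at 13.6 CPM against 4.64 CPM, so its place in this count is partly set by the filter. B2M was 1.87-fold (1.83 to 1.91), PSMB9 1.82-fold (1.64 to 2.00), TAPBP 1.80-fold (1.57 to 2.06) and TAP1 1.74-fold (1.42 to 2.13) the untreated level. HLA-B was at 1.46-fold (1.38 to 1.56) and HLA-C at 1.41-fold (1.34 to 1.47). HLA-E at 1.07-fold (0.954 to 1.20) and TAP2 at 1.02-fold (0.754 to 1.36) had intervals that include 1. Over all 9 members the median log2 ratio was 0.75, beside −0.17 over all measured genes.

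At 250 nM, where the heavy chains were near their highest level, 10.2% of 9786 measured genes were 2-fold apart from untreated cells, 4.19% higher and 6.01% lower. Of the 8 members measured 3 were at least 2-fold higher and 0 lower. These were heavy chains: HLA-B at 2.62-fold (2.49 to 2.75), HLA-C at 2.11-fold (2.03 to 2.20) and HLA-F at 2.31-fold (1.71 to 3.11), with HLA-E at 1.82-fold (1.65 to 2.00). HLA-F again passed the minimum only through the adapted cells, at 10.7 CPM against 4.64 CPM. The light chain B2M was 1.59-fold (1.55 to 1.63) and PSMB9 1.23-fold (1.10 to 1.37) the untreated level. At 30 nM, the lowest dose, 10.0% of 9882 measured genes were 2-fold apart from untreated cells, 4.44% higher and 5.58% lower, and of the 7 members measured 0 were. There B2M already stood at 1.75-fold (1.71 to 1.80), HLA-E at 1.64-fold (1.48 to 1.82) and PSMB9 at 1.60-fold (1.43 to 1.77). The median over the 9 members was 0.67 at 250 nM and 0.61 at 30 nM, beside −0.09 and −0.07 over all measured genes.

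Cells at 4 µM were also set against cells at 30 nM, the ends of the dose series. Here 6.81% of 9766 measured genes were 2-fold apart, 3.12% higher and 3.69% lower, and 0 of the 8 members measured were. HLA-E was lower at 4 µM, at 0.652-fold (0.573 to 0.741), the HLA-F ratio was 1.57, and the other 7 members lay between 0.956-fold and 1.19-fold. The step between 500 and 250 nM was compared after its values were seen: 9.72% of measured genes were 2-fold apart in either direction and 4.87% were lower. HLA-B at 500 nM was 0.462-fold (0.431 to 0.495) its level at 250 nM, the 1 member 2-fold lower, with HLA-C at 0.556-fold (0.526 to 0.588) and HLA-E at 0.680-fold (0.601 to 0.767). Over the same step B2M was at 1.07-fold (1.04 to 1.10) and PSMB9 at 1.37-fold (1.21 to 1.56).

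The balance of heavy to light chain mRNA differed along the doses as well. Counting at the 3′ end takes 1 UMI per molecule whatever the gene's length, but capture may differ between genes, so these ratios are compared between populations only. For every 100 B2M UMIs there were 40.6 UMIs of HLA-B and HLA-C together in untreated A375 cells and 31.6, 53.2, 68.7, 58.9, 28.4, 27.2, 29.2 and 31.0 along the doses. The ratio was thus above the untreated one at 60, 125 and 250 nM and below it at the other 5 doses. PSMB9 had between 24.2 UMIs (60 nM) and 36.0 UMIs (4 µM) per 100 of PSMB6, the constitutive subunit it replaces, in adapted cells and 13.9 in untreated cells. The 125 nM culture, whose PSMB9 level was that of untreated cells, had a ratio of 25.5, with PSMB6 at 180.0 CPM against 343 CPM in untreated cells. At 250 nM the ratio was 29.4 while PSMB9 itself was 1.23-fold (1.10 to 1.37) the untreated level. The ratio thus also reflects lower PSMB6 and not PSMB9 alone.

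Across the 9 A375 populations the log2 profile of HLA-B correlated with that of HLA-C at r = 0.98, with HLA-E at 0.85, with B2M at 0.06, with PSMB9 at −0.50 and with TAP2 at −0.84. B2M correlated with TAPBP at 0.88, with HLA-F at 0.83 and with PSMB9 at 0.81. These values describe 9 cultures that share 1 pool and 1 scaling, and HLA-B and HLA-C may also share reads.

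Other genes of the pathway were read from lists for the same comparisons. Of 12 further supply and loading genes 9 were measured at 4 µM against untreated cells and 0 were 2-fold apart. PSMB10, another immunoproteasome subunit, was 1.73-fold (1.29 to 2.31) and the chaperone gene CALR 0.710-fold (0.685 to 0.737) the untreated level. At 30 nM 1 of 9 was higher, PSMB10 at 2.57-fold (1.97 to 3.35). The 14 constitutive proteasome subunits had 0 genes 2-fold apart in any of the 9 comparisons, and their median log2 ratio was −0.47 at 4 µM and −0.50 at 250 nM against untreated A375 cells.

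Among 24 regulators, 21 were measured at 4 µM and 1 was 2-fold higher than in untreated A375 cells, beside 5.97% of all measured genes. This was NLRC5, the coactivator of class I genes, at 2.99-fold (2.43 to 3.67). NLRC5 had 8.42 CPM in untreated cells and 13.1, 9.83, 11.9, 11.8, 17.1, 20.9, 25.3 and 25.1 CPM along the doses, with its highest levels at 2 and 4 µM. NFKB1, which encodes a κB-binding subunit of NF-κB, had 102.8 CPM in untreated cells and 83.7, 124, 159, 133, 64.8, 55.4, 56.9 and 56.0 CPM along the doses. This profile was chosen after its values were seen, and its untreated level lay above those of 5 adapted populations. NFKB1 at 4 µM was 0.545-fold (0.490 to 0.604) the untreated level. At 250 nM 1 of 21 regulators was higher, SOCS3, a feedback inhibitor of JAK and STAT signalling, at 3.50-fold (2.86 to 4.29), and at 30 nM 0 of 21 were. Of all measured genes 4.19% were higher at 250 nM and 4.44% at 30 nM.

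Of the 43 interferon-stimulated genes counted in A375, 28 were measured at 4 µM, where 6 were 2-fold higher than in untreated cells and 1 was lower. GBP1, a guanylate-binding protein, was counted at 85.4 CPM at 4 µM against 11.8 CPM in untreated cells, 7.24-fold (6.26 to 8.40), and the membrane protein gene IFITM2 was 3.18-fold (2.89 to 3.50). ISG20, an exonuclease gene, was the lower one at 0.209-fold (0.187 to 0.233). At 250 nM 5 of 25 were higher, led by BST2 (tetherin) at 3.87-fold (3.23 to 4.63), and 1 was lower. At 30 nM 7 of 27 were higher, ISG15 at 2.39-fold (2.07 to 2.75) among them, and 1 was lower. Of all measured genes 5.97% were higher at 4 µM, 4.19% at 250 nM and 4.44% at 30 nM. The median log2 ratio of all 43 was 0.58 at 30 nM, 0.36 at 250 nM and 0.81 at 4 µM. Of 9 interferon genes searched only IFNE was in the tables, at up to 3.67 CPM in A375.

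At the high doses MHC class II genes parted from B2M, PSMB9 and TAPBP. These class II genes present peptides from outside the cell and are expressed by many melanomas. Their transactivator CIITA had 31.5 CPM in untreated A375 cells and 45.1, 39.1, 26.9, 57.5, 33.6, 9.57, 10.4 and 10.7 CPM along the doses. HLA-DRA, a class II chain, had 525 CPM in untreated cells and 929, 828, 862, 1371, 508, 212, 217 and 264 CPM. The heavy chains HLA-B and HLA-C shared part of this course. HLA-B had 368 CPM at 250 nM and 169.9 CPM at 500 nM, and HLA-C had 481 and 267 CPM. Above 500 nM HLA-B lay between 144 and 206 CPM, against 140.5 CPM in untreated cells. HLA-C lay there between 236 and 319.9 CPM, against 228 CPM. Of 11 measured class II genes 3 were 2-fold higher at 30 nM, 10 were higher at 250 nM and 3 were lower at 4 µM than in untreated cells. The shares of all measured genes were 4.44%, 4.19% and 9.45%. HLA-DQA1 was 4.55-fold (4.06 to 5.10) higher at 250 nM, and CIITA was at 0.341-fold (0.268 to 0.429) at 4 µM. SOX10, a melanocyte lineage factor, had 208 CPM in untreated cells and 137, 208, 206, 211, 68.0, 29.9, 29.1 and 38.2 CPM along the doses. This profile was chosen after its values were seen, and the 9 melanocyte markers did not all go its way. At 4 µM 3 of 5 measured markers were 2-fold lower than in untreated cells, SOX10, S100B and S100A1, while DCT, a pigment enzyme gene, was 2-fold higher at 31.0 CPM against 6.55 CPM, and MITF was at 91.1 CPM against 73.4 CPM. At 250 nM 4 of 5 were higher and 0 lower. The part of these shifts in the class I levels was not tested.

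**Figure D2:**
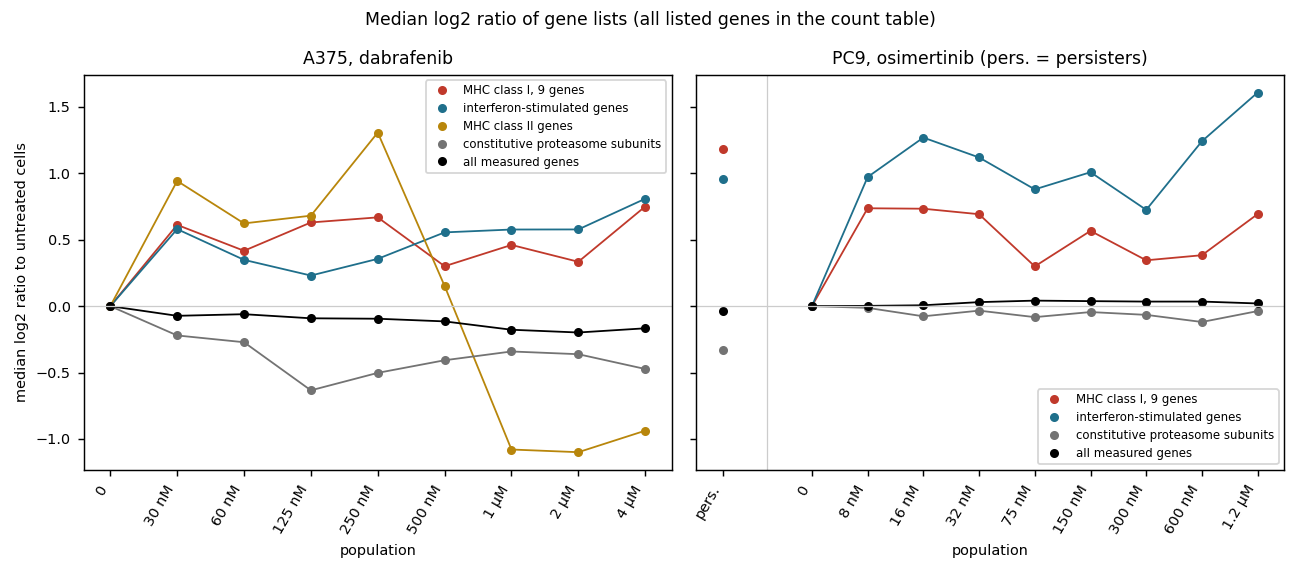
Median log2 ratio to untreated cells (vertical axis) of the 9 class I genes, interferon-stimulated genes, class II genes (A375 only), constitutive proteasome subunits and all measured genes, by dose and, in PC9, in persisters (horizontal axis); list medians cover every listed gene in the count table. Class I medians lie above 0 throughout, at 0.75 for 4 µM dabrafenib and 1.18 for PC9 persisters, while class II medians in A375 turn negative from 1 µM.

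Cell cycle genes differed in the same comparisons. In cells at 4 µM 17 of 19 measured S-phase genes and 18 of 20 mitotic (G2/M) genes were 2-fold lower than in untreated A375 cells. At 250 nM 16 and 19 were lower, and at 30 nM 11 and 11. S-phase genes summed to between 287 CPM (125 nM) and 705 CPM in adapted cells against 1332 CPM in untreated cells. The fibroblast markers, 5 of 6 of which reached 10 CPM, summed to up to 126 CPM (30 nM) against 18.3 CPM in untreated cells. At 4 µM 10.6% of cells and at 125 nM 8.71% had 20% or more mitochondrial UMIs, against 0.796% of untreated cells. The 125 nM culture also had the fewest cells (379) and the lowest median UMIs per cell (7337) of the A375 populations. The part of these shifts in the class I ratios was not tested.

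In PC9, with all cells counted, all members but TAP2 were higher in every osimertinib-adapted population than in untreated cells. Some of these differences were within counting error. Most members were higher at the lowest and the top dose than from 75 to 600 nM. In the cells that the authors' cell table lists, HLA-E had 76.0 CPM untreated and 53.6 to 61.3 CPM from 75 nM to 1.2 µM. Below 75 nM its level in listed cells was above the untreated one. TAP1 there was below its untreated 8.84 CPM at 75 nM (8.23 CPM) and 600 nM (7.32 CPM) but above it at other doses. These TAP1 levels rest on 10 to 24 UMIs. HLA-B, PSMB9 and TAP1 were more than 2-fold higher at both ends of the dose series when all cells were counted. TAP2 was highest in untreated cells. The persisters had more of HLA-B, HLA-C, HLA-E, HLA-F, B2M, TAPBP and PSMB9 than any adapted population.

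HLA-B was counted at 267 CPM in persisters. It had 39.8 CPM in untreated PC9 cells and 134, 135, 107, 80.2, 82.6, 75.8, 93.3 and 131 CPM from 8 nM to 1.2 µM. The levels at 8 nM, 16 nM and 1.2 µM did not differ between neighbours in order beyond counting error, nor did those at 75, 150 and 300 nM, and every drugged population was above untreated cells. HLA-C was counted at 312 CPM in persisters, at 138 CPM in untreated cells and at 225, 221, 181, 169.6, 173, 171, 179 and 218 CPM along the doses. Both heavy chains thus had a trough at the middle doses. HLA-E had 84.1 CPM in persisters, 46.5 CPM in untreated cells and 69.2, 65.1, 64.0, 51.9, 48.4, 49.9, 49.9 and 49.5 CPM along the doses, without a second increase at 1.2 µM.

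B2M was counted at 1629 CPM in persisters, at 589 CPM in untreated cells and at 834, 856, 784, 639, 677, 664, 723 and 888 CPM along the doses. PSMB9 was counted at 112 CPM in persisters, at 27.2 CPM in untreated cells and at 71.9, 69.9, 63.4, 45.3, 45.5, 45.1, 48.8 and 62.2 CPM along the doses. The light chain and the immunoproteasome subunit therefore shared the trough from 75 to 600 nM. TAPBP had 150.0 CPM in persisters, between 92.3 CPM (300 nM) and 110.0 CPM (8 nM) in adapted cells and 65.6 CPM in untreated cells. TAP1 had 13.0 CPM in persisters, between 8.73 CPM (75 nM) and 12.8 CPM (16 nM) in adapted cells and 5.31 CPM in untreated cells. TAP2 ran apart from its partner, with 23.0 CPM in persisters, between 15.8 CPM (300 nM) and 24.6 CPM (16 nM) in adapted cells and 25.8 CPM in untreated cells. HLA-F had 12.8 CPM from 63 UMIs in persisters, at most 6.41 CPM in adapted cells and 2.08 CPM from 22 UMIs in untreated cells.

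**Figure D3:**
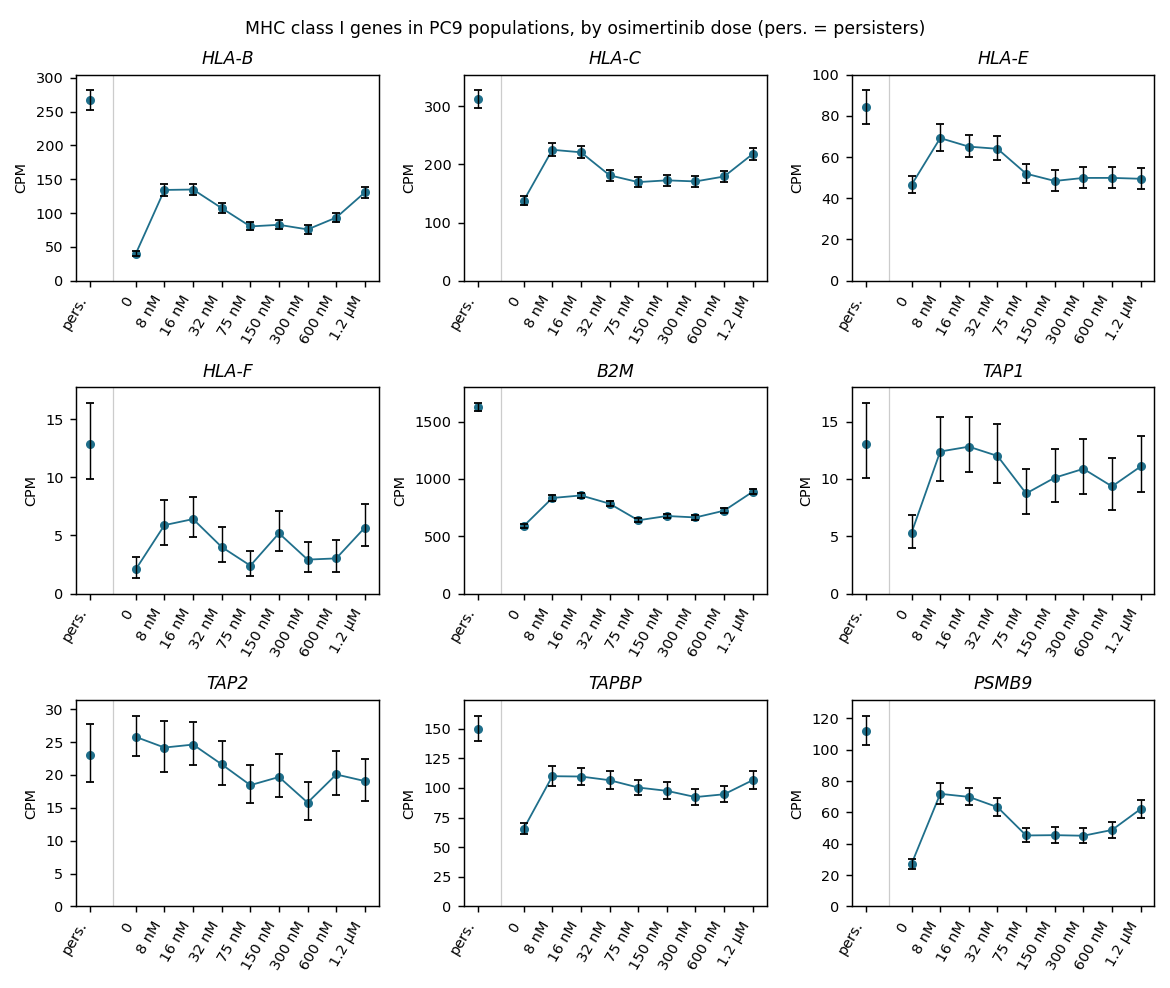
Level of each of the 9 class I genes in CPM (vertical axis, each panel with its own scale from 0) in PC9 persisters (leftmost point) and in PC9 populations by osimertinib dose (0 is untreated). Points are 1 culture each and bars are 95% Poisson intervals for counting error; HLA-B stands at 267 CPM in persisters, at 131 to 135 CPM at both ends of the adapted series and at 39.8 CPM in untreated cells.

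In cells adapted to the top osimertinib dose, 1.2 µM, 10.8% of 9477 measured genes were 2-fold apart from untreated PC9 cells, 6.55% higher and 4.24% lower. Of the 8 members measured 3 were 2-fold higher and 0 lower. TAP1 was 2.09-fold (1.47 to 2.99) and PSMB9 2.29-fold (1.97 to 2.66) higher, beside HLA-B at 3.28-fold (2.92 to 3.69). TAP1 passed the minimum only through the 1.2 µM cells, at 11.1 CPM against 5.31 CPM. HLA-C was at 1.58-fold (1.47 to 1.70), TAPBP at 1.63-fold (1.47 to 1.80) and B2M at 1.51-fold (1.46 to 1.56). HLA-E at 1.06-fold (0.926 to 1.22) had an interval that includes 1, and TAP2 was at 0.739-fold (0.599 to 0.909). HLA-F, with 42 UMIs at 1.2 µM and 22 in untreated cells, did not reach 10 CPM. In the cells that the authors' cell table lists, TAP1 was at 10.9 CPM at 1.2 µM against 8.84 CPM in untreated cells, from 25 and 10 UMIs, and was below 2-fold.

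At 8 nM, 5.48% of 9338 measured genes were 2-fold apart from untreated PC9 cells, 3.54% higher and 1.94% lower. The same 3 of 8 measured members were higher: HLA-B at 3.37-fold (2.995 to 3.795), PSMB9 at 2.64-fold (2.28 to 3.07) and TAP1 at 2.33-fold (1.64 to 3.35). TAP1 passed the minimum only through the 8 nM cells, at 12.4 CPM against 5.31 CPM. HLA-E, at 1.49-fold (1.31 to 1.69), was higher here than at the top dose. The median over the 9 members was 0.69 at 1.2 µM and 0.74 at 8 nM, beside 0.02 and 0.00 over all measured genes. In the listed cells TAP1 at 13.3 CPM against 8.84 CPM and PSMB9 at 57.8 CPM against 30.1 CPM in untreated cells were below 2-fold at 8 nM. Both comparisons share the untreated culture. Between 1.2 µM and 8 nM themselves, 3.45% of 9401 measured genes were 2-fold apart, 1.82% higher and 1.63% lower, and 0 of the 8 members measured were, with HLA-E at 0.715-fold (0.621 to 0.822), TAP2 at 0.789-fold and PSMB9 at 0.865-fold (0.759 to 0.986). Cells at 75 nM were set against cells at 16 nM after their values were seen, where 1.48% of measured genes were 2-fold apart and 0 members were. There HLA-B was at 0.595-fold (0.542 to 0.653), PSMB9 at 0.648-fold (0.571 to 0.735) and B2M at 0.747-fold (0.721 to 0.773).

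In persisters 21.6% of 9646 measured genes were 2-fold apart from untreated PC9 cells, 11.4% higher and 10.2% lower. Of the 9 members, all measured here, 7 were 2-fold higher and 0 lower. HLA-B was 6.72-fold (6.01 to 7.51), HLA-F 6.16-fold (3.74 to 10.5) and PSMB9 4.12-fold (3.57 to 4.77) higher. B2M was 2.77-fold (2.68 to 2.86), TAP1 2.46-fold (1.69 to 3.58), TAPBP 2.29-fold (2.06 to 2.54) and HLA-C 2.27-fold (2.11 to 2.44) higher. HLA-F (12.8 against 2.08 CPM) and TAP1 (13.0 against 5.31 CPM) passed the minimum only through the persisters, so their place in this count is partly set by the filter. The remaining members were HLA-E at 1.81-fold and TAP2 at 0.893-fold (0.711 to 1.12), whose interval includes 1. The median over the 9 members was 1.18, beside −0.04 over all measured genes. In the listed cells HLA-C, at 338 CPM in persisters against 173 CPM in untreated cells, and TAP1, at 14.8 CPM against 8.84 CPM, were below 2-fold.

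Persisters and cells adapted to 1.2 µM had met the same concentration, acutely in persisters and by escalation in adapted cells. Here 9.28% of 9544 measured genes were 2-fold apart, 4.42% higher and 4.86% lower, and of the 9 members measured 2 were higher and 0 lower. HLA-B was 2.05-fold (1.88 to 2.23) and HLA-F 2.26-fold (1.51 to 3.43) higher in persisters. HLA-F passed the minimum only through the persisters, at 12.8 CPM against 5.68 CPM. B2M at 1.83-fold (1.77 to 1.90), PSMB9 at 1.80-fold (1.59 to 2.04) and HLA-E at 1.70-fold (1.47 to 1.96) followed, whereas TAP1 at 1.18-fold (0.835 to 1.65) and TAP2 at 1.21-fold (0.935 to 1.56) had intervals that include 1. The median over the 9 members was 0.75, beside −0.06 over all measured genes.

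The make-up of the class I mRNA also differed between PC9 populations. For every 100 HLA-C UMIs there were 85.6 HLA-B UMIs in persisters, 28.9 in untreated cells and 59.6, 61.0, 59.2, 47.3, 47.8, 44.4, 52.1 and 59.9 along the doses. PSMB9 had 27.2 UMIs per 100 of PSMB6 in persisters, 5.39 in untreated cells and 14.4, 14.3, 12.9, 9.53, 9.19, 9.20, 10.1 and 12.5 along the doses. HLA-B and HLA-C together had 35.6 UMIs per 100 of B2M in persisters, 36.8 to 43.1 in adapted cells and 30.1 in untreated cells. TAP1 had 56.6 UMIs per 100 of TAP2 in persisters, 46.6 to 68.9 in adapted cells and 20.6 in untreated cells.

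**Figure D4:**
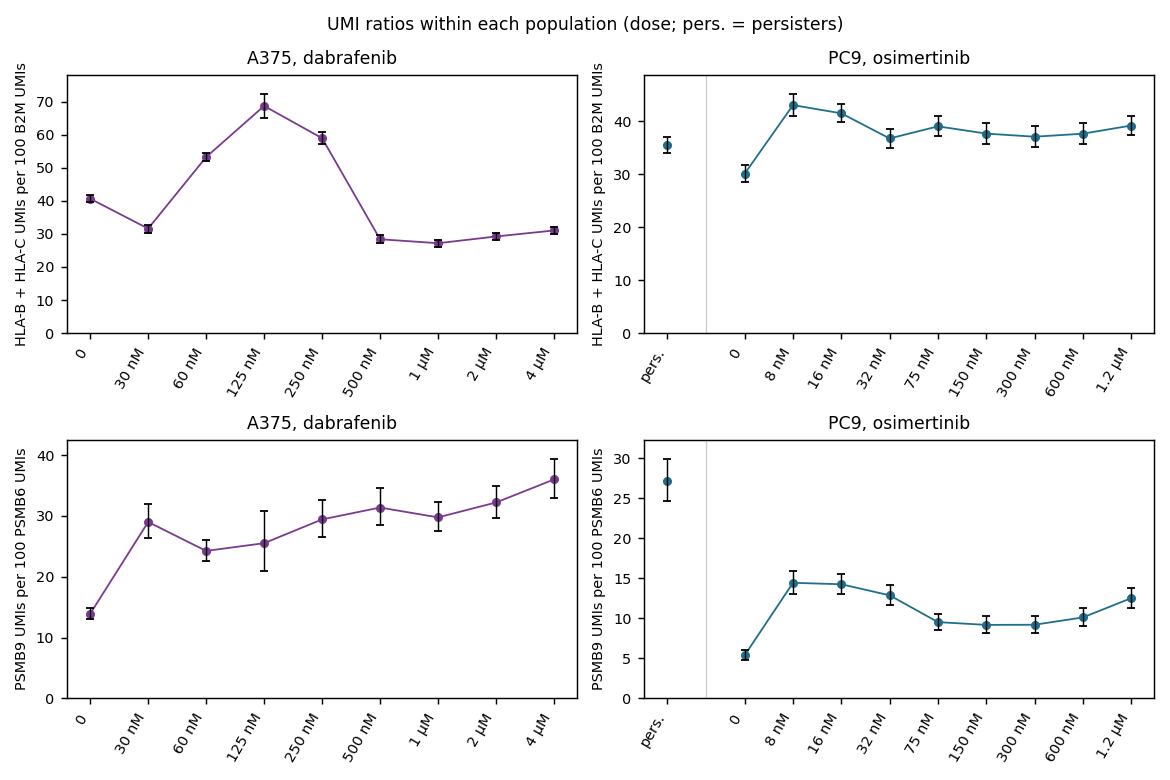
UMIs of HLA-B and HLA-C together per 100 UMIs of B2M and UMIs of PSMB9 per 100 UMIs of PSMB6 (vertical axes) in A375 by dabrafenib dose and in PC9 persisters and by osimertinib dose (horizontal axes, 0 is untreated). Points are 1 culture each and bars are 95% counting intervals; the heavy to light chain ratio in A375 runs from 27.2 at 1 µM to 68.7 at 125 nM, while PSMB9 per PSMB6 exceeds the untreated ratio in every drugged population.

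Across the 10 PC9 populations 8 of the 9 members had profiles that ran alike. The HLA-B profile correlated with PSMB9 at r = 0.99, with HLA-C at 0.98, with TAPBP at 0.97, with B2M at 0.92, with HLA-F at 0.91, with TAP1 at 0.86, with HLA-E at 0.83 and with TAP2 at 0.13. The persisters are 1 of the 10 points, the points share 1 pool, and the values are descriptions. The genes outside the members whose profile was most like the members' mean in PC9 included ELF3 (r = 0.976), GABARAPL2 (0.971), PSME1 (0.965) and GATA6 (0.964) of 7224 genes ranked. In A375 they were FBN1 (0.977), DECR1 (0.963), SSBP2 (0.95), CADPS2 (0.946) and STAT3 (0.945) of 7655 genes ranked over 9 populations. All 5 were lowest in untreated cells. The A375 mean stood for its members unevenly. Against the mean of the other members, r was 0.91 for HLA-F, 0.82 for TAPBP, 0.81 for B2M and 0.74 for TAP1. It was 0.36 for PSMB9, 0.27 for HLA-C, 0.23 for HLA-B, 0.23 for HLA-E and −0.19 for TAP2.

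Of the further supply and loading genes, 10 were measured in persisters against untreated PC9 cells and 3 were higher. TAPBPL, a peptide editor related to tapasin, was 2.99-fold (2.29 to 3.93), PSME1, a proteasome activator subunit, 2.14-fold (1.94 to 2.36) and the peptide-trimming enzyme gene ERAP1 2.25-fold (1.58 to 3.20) higher. ERAP1 was the 1 of 9 that was higher at 1.2 µM, at 2.10-fold (1.52 to 2.91), and the 1 of 10 at 8 nM, at 2.06-fold (1.47 to 2.88). PSMB8, a further immunoproteasome subunit, was at 92.5 CPM in persisters against 53.6 CPM in untreated cells, below the 2-fold mark. The 14 constitutive subunits had a median log2 ratio of −0.33 in persisters and −0.04 at 1.2 µM against untreated cells.

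Among the regulators 6 of 19 were 2-fold higher in persisters than in untreated PC9 cells, beside 11.4% of all measured genes. IRF1, the factor that binds interferon response elements, was counted at 60.9 CPM in persisters, at 11.8 CPM in untreated cells and at 26.2, 27.4, 21.3, 19.0, 15.8, 18.2, 17.5 and 21.9 CPM along the doses. Its highest level was in persisters. IFNGR1, a chain of the interferon gamma receptor, was at 69.1 CPM in persisters against 16.6 CPM in untreated cells, 4.16-fold (3.46 to 5.03). NLRC5 was at 11.0 CPM in persisters, 13.1 CPM at 1.2 µM and 9.00 CPM in untreated cells. Of 17 regulators measured at 1.2 µM 3 were higher, STAT2, an interferon signal transducer, at 4.22-fold (3.20 to 5.61) among them, and of 17 at 8 nM 1 was, IRF1 at 2.23-fold (1.76 to 2.83). Of all measured genes 6.55% were higher at 1.2 µM and 3.54% at 8 nM.

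Interferon-stimulated genes were ordered otherwise than the class I genes. Of the 42 such genes counted in PC9, 34 were measured at 1.2 µM against untreated cells, and 25 were higher and 0 lower. At 8 nM 11 of 25 were higher and 1 lower, and in persisters 14 of 26 were higher and 1 lower. Of all measured genes 6.55% were higher at 1.2 µM, 3.54% at 8 nM and 11.4% in persisters. Genes below 10 CPM in untreated cells were measured only where the other population reached 10 CPM, so the numbers measured differ. These counts are thus partly set by that filter, whereas the medians cover all 42 genes. The median log2 ratio of all 42 was 1.61 at 1.2 µM and 0.97 at 8 nM, beside class I medians of 0.69 and 0.74, and it was 0.95 in persisters against a class I median of 1.18. Between persisters and the adapted cells at 1.2 µM 1 of 34 was higher and 10 were lower, beside 4.42% and 4.86% of all measured genes. MX1, an antiviral GTPase gene, was counted at 12.02 CPM in persisters against 58.3 CPM at 1.2 µM, 0.206-fold (0.154 to 0.271). GBP2 was the higher one at 7.31-fold (3.98 to 14.5), with 63 UMIs in persisters and 13 at 1.2 µM. IFNE, the one interferon gene in the table, was at or below 0.853 CPM.

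Class II genes, low in untreated PC9 cells, were counted in persisters. All 5 that were measured there were higher than in untreated cells, and 4 of 5 were higher than at 1.2 µM. CD74, the invariant chain, was at 63.8 CPM in persisters against 13.5 CPM in untreated cells, 4.74-fold (3.87 to 5.82). HLA-DQB1 was 15.0-fold (8.87 to 27.2) and HLA-DRB1 9.67-fold (5.75 to 17.1) higher than in untreated cells. S-phase genes summed to 442 CPM in persisters, between 1091 and 1308 CPM in adapted cells and 1595 CPM in untreated cells. In persisters 19 of 19 measured S-phase genes and 15 of 20 mitotic genes were 2-fold lower than in untreated cells, and at 1.2 µM 1 and 0 were. The S-phase sum at 1.2 µM was 1167 CPM, and the median log2 ratio of that list to untreated cells was −0.50. The part of these shifts in the class I levels was not tested.

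Class I mRNA was also read per cell, after thinning each cell to 4638 UMIs in A375 and 3832 UMIs in PC9 and leaving out shallower cells (between 45 and 202 per population). A cell with at least 1 HLA-B UMI was found in 53.5% of 667 persisters (49.7 to 57.4, exact binomial), in 36.1% of cells at 1.2 µM and in 13.3% of 1238 untreated PC9 cells. Without thinning the shares were 63.9% of persisters and 24.5% of untreated cells. Along the PC9 doses from 8 nM the thinned HLA-B share was 37.0%, 37.1%, 30.8%, 24.7%, 24.6%, 23.9%, 28.6% and 36.1%, the same trough as in the levels. In A375 it was 41.4% of untreated cells and 53.0%, 70.0%, 75.4%, 74.4%, 43.3%, 41.3%, 45.6% and 53.5% along the doses. B2M was found in 97.8% of persisters and 86.6% of untreated PC9 cells and in 96.3% to 99.7% of A375 cells, which leaves little room for its share to show a difference.

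All cells of these lines can express class I genes, so no cell type in the pools gives a background for free RNA in the droplets, and its part was not tested. The lowest thinned shares of HLA-F and HLA-B were 0.889% (0.444 to 1.58) and 13.3% (11.5 to 15.3), both in untreated PC9 cells. The thinned shares of PSMB9 were 33.3% in persisters, 15.4% to 24.1% in adapted cells and 11.0% in untreated PC9 cells. In A375 they were between 16.3% at 125 nM and 35.3% at 2 µM in adapted cells and 18.6% in untreated cells.

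**Figure D5:**
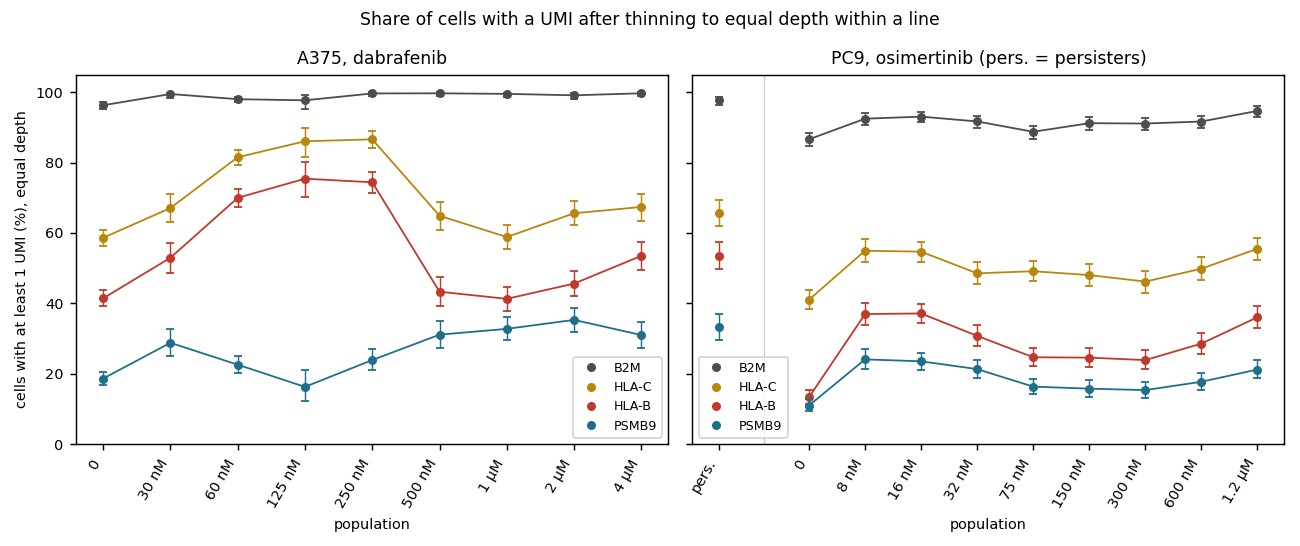
Percent of cells with at least 1 UMI of B2M, HLA-C, HLA-B or PSMB9 (vertical axis) after thinning each cell to 4638 UMIs (A375) or 3832 UMIs (PC9), by dose and in PC9 persisters (horizontal axis, 0 is untreated). Bars are 95% exact binomial intervals for counting error; the HLA-B share is 75.4% at 125 nM in A375 and 53.5% in PC9 persisters, against 41.4% and 13.3% of untreated cells.

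The UMIs of all 9 members per thinned cell had a median of 9 in persisters, 4 to 5 in adapted PC9 cells and 3 in untreated PC9 cells. The quartiles were 6 and 13 UMIs and the 95th percentile 23 in persisters, against 2, 5 and 8 in untreated cells. The variance over the mean was 4.16 in persisters and 1.46 in untreated PC9 cells, and in A375 it was 3.78 at 4 µM and 1.86 in untreated cells, while the means were 10.2 and 3.60 UMIs in PC9 and 11.9 and 6.28 in A375. The A375 medians were 8 to 11 in adapted cells and 6 in untreated cells. Persisters without any UMI of the 9 members made up 0.45%, against 4.85% of untreated PC9 cells. HLA-B and HLA-C were found together in 37.5% of persisters, beside 35.1% from the product of their shares, and in 5.74% of untreated PC9 cells, beside 5.47%.

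The authors' cell tables list 5059 of the A375 cells (59.5%) and 4208 of the PC9 cells (37.4%) with a cluster number. Their names carry the tag g1, and they list 81.8% of persisters but 12.9% of untreated PC9 cells. Listed persisters (673 cells) had 310.4 CPM of HLA-B and 1835 CPM of B2M, against 124 and 946 CPM in the 150 persisters not listed. In untreated PC9 cells HLA-B was at 61.0 CPM in 169 listed cells and at 37.3 CPM in the 1146 others. Among the PC9 clusters HLA-B stood at 311 CPM in cluster 1 (718 cells, 83.4% persisters), at 179 CPM in cluster 2 (1198 cells, 37.5% from 16 nM) and at 46.1 CPM in cluster 0 (152 cells, 95.4% untreated). In A375 the highest B2M was in cluster 5 (146 cells, 38.4% from 4 µM) at 2500 CPM with HLA-B at 365 CPM, while cluster 6 (914 cells, 31.5% from 1 µM) had HLA-B at 102 CPM and B2M at 1388 CPM. Since the clusters were made from the genes of these cells, these levels are descriptions.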

How the data were processed

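Single cells of 9 A375 and 10 PC9 populations were tagged with CellPlex oligonucleotides, then pooled by line for 3′ droplet sequencing, per the labels' protocols. What the authors deposited are raw counts of UMIs for each gene in each cell. Cell Ranger 7.0.0 and GRCh38 are named in the submitters' processing notes. The authors' cell tables give counts and the percent of mitochondrial UMIs per listed cell, per the file headers, and how cells were chosen is not given in the sources used here. Cells were assigned to populations by the end of their names, with T05 matched to the label T0500. The A375 pool was sequenced in 2 runs that the cell names do not tell apart.

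All deposited cells were used, without a doublet caller. CPM are the UMIs of a gene over all cells of a population per 1000000 UMIs of that population. Folds are ratios of CPM with 95% exact conditional binomial intervals, levels have exact Poisson intervals, and list medians are of log2 ratios of CPM + 1. A gene was measured at 20 UMIs and 10 CPM or more in the population with more of it, and counted as different at 2-fold. Intervals cover counting error only. Shares of cells were taken after thinning to the 10th percentile of UMIs per cell.

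The members and lists were chosen with earlier results of these data known. All 9 members are named. Of each other list up to 2 genes with the highest and 2 with the lowest ratio per comparison were eligible, and the 5 genes per line with the profile most like the members' mean. Profiles by dose of NLRC5, NFKB1, CIITA, HLA-DRA, SOX10, IRF1, PSMB6, PSMB8 and CD74, ERAP1 in persisters, and NLRC5 in PC9 were chosen after their values were seen. The gene ranked first in PC9 is not reported here. Motifs were searched on both strands of RefSeq promoter windows of 250 bases. Gene positions are from the GENCODE annotation on GRCh38. The software was R 4.3.3 with edgeR 4.0.16 for TMM factors, and Python 3.11.15 with pandas 2.3.3, scipy 1.17.1 and numpy 2.4.6. Ratios and intervals were tested on simulated data. Alternatives were TMM factors, other totals, the listed cells, per-cell means, cell filters, thinning, other minimums, a 1.5-fold threshold and a pseudocount of 5 CPM.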

Additional observations from a re-analysis of the deposited data

How the results depend on the processing

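The numbers of members 2-fold apart were recomputed under 11 alternatives for the 9 comparisons, and 77 of 99 values were within 1.5 times the reported one. For 4 µM dabrafenib against untreated cells (1 member) the number was 2 with TMM factors, 2 with totals without mitochondrial and ribosomal protein genes, 2 in the authors' listed cells, 3 without cells over 2 times the median UMIs, 2 after thinning to the shallowest population, 0 with a minimum of 50 CPM and 0 with a pseudocount of 5 CPM. For 30 nM (0) it was 4 with the mean of each cell's own CPM and 1 without cells over 2 times the median UMIs. For 250 nM (3) it was 1 in the listed cells, without HLA-C and HLA-F, and for 4 µM against 30 nM (0) it was 1 after thinning. For 8 nM osimertinib (3) it was 1 in the listed cells, without PSMB9 and TAP1. For 1.2 µM (3) it was 2 there, without TAP1. For persisters against 1.2 µM (2) it was 1 in the listed cells, without HLA-B, 1 with a minimum of 50 CPM and 1 with the pseudocount. At a threshold of 1.5-fold the numbers were 5 for 4 µM, 5 for 30 nM, 6 for 250 nM, 2 for 4 µM against 30 nM, 6 for 1.2 µM, 5 for 8 nM and 5 for persisters against 1.2 µM. For persisters against untreated cells (7) and for 1.2 µM against 8 nM (0) no alternative moved the number past 1.5 times. The cause of these shifts was not tested, other than that the thresholds count other genes by construction.

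Of 648 log2 ratios of single members under alternatives 633 kept their sign, and none of the 15 that did not belonged to a member counted as different. HLA-B at 4 µM against 30 nM was −0.06, and 0.04 with TMM factors. HLA-E at 1.2 µM against untreated cells was 0.09, and −0.40 in the listed cells. B2M at 4 µM against 30 nM was 0.09, and −0.17 with per-cell means. With TMM factors the median of all genes lay between −0.09 and 0.01. No paired analysis was possible because each population is 1 culture and the labels number only sequencing runs. HLA-F, TAP1 and TAP2 rest on 20 to 272 UMIs per population, which limits the precision of their ratios, and surface protein was not measured.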

Other observations

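Surface molecules that immune cells read beside class I were also counted. NT5E, which encodes the adenosine-producing ectoenzyme CD73, was at 12.8 CPM in PC9 persisters and 13.3 CPM at 1.2 µM against 119 CPM in untreated PC9 cells, 0.108-fold (0.0827 to 0.139) and 0.112-fold (0.0900 to 0.137). It was already at 24.6 CPM at 8 nM. In A375 NT5E was at 17.3 CPM at 250 nM against 47.1 CPM in untreated cells, 0.367-fold (0.305 to 0.439).

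ULBP2, a stress-induced ligand of the activating receptor NKG2D, was at 38.5 CPM at 4 µM dabrafenib against 10.7 CPM in untreated A375 cells, 3.60-fold (3.02 to 4.29). NECTIN2, a ligand of both activating and inhibitory lymphocyte receptors, was at 106 CPM at 1.2 µM osimertinib against 43.8 CPM in untreated PC9 cells, 2.42-fold (2.15 to 2.72). CD47, the signal that restrains phagocytosis, was at 158 CPM in persisters against 84.0 CPM in untreated PC9 cells, 1.89-fold (1.71 to 2.08), below the 2-fold mark. Of the listed surface ligands 14 were in each count table.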
